A study of Mus musculus with 11 samples.

Results

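Cathepsins, cystatins and serpins were followed in basal and luminal cells of the pubertal mouse mammary gland, in terminal end buds (TEBs) and in ducts. The members were every counted gene whose mouse symbol marks it as a cathepsin (Cts), a cystatin (Cst, without the Cstf and Cstl genes) or a serpin, which gave 108 of the 27179 gene identifiers counted. There were 23 cathepsins, 20 genes with a cystatin symbol and 65 serpins. The families were chosen by the measured TEB change of Cst3, which differed between basal and luminal cells, so the Cst3 values below are a description and carry no test. Of the 108 members, 30 had no count in any library, 24 had 1 to 14 counts in all, and 45 passed the filter on low counts and were tested (13 cathepsins, 5 cystatin-named genes and 27 serpins). The other 33 members with a count had at most 134 counts each over all libraries. Cstad is among the cystatin-named genes by its symbol only and does not encode a cystatin.

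Cathepsins are proteases of the lysosome, most of them cysteine proteases of the papain family, while Ctsd and Ctse encode aspartic proteases and Ctsa a serine carboxypeptidase. Cystatins bind and block the cysteine cathepsins, either outside the cell, as the secreted cystatin C (Cst3) does, or in the cytosol, as cystatin B (Cstb) does. Serpins trap serine proteases by a large change of shape, and several members no longer inhibit a protease, among them the collagen chaperone HSP47 (Serpinh1), pigment epithelium-derived factor (Serpinf1) and maspin (Serpinb5), a product of mammary basal cells that was first known as a tumour suppressor. Proteases and their inhibitors are known for their part in the remodelling of stroma and basement membrane around growing ducts.

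RNA was sequenced from C57BL/6 female mice aged 5 weeks that carried an Ecad-GFP reporter, an E-cadherin tag that is bright in luminal and dim in basal cells. TEBs, the bulbous growing tips, and ducts were dissected apart, and CD29+CD24+ cells negative for Ter119, CD31 and CD45 (markers of erythroid, endothelial and blood cells) were sorted into Ecad-GFP hi (luminal) and Ecad-GFP lo (basal) cells. There were 3 libraries from basal duct, 3 from basal TEB, 2 from luminal duct and 3 from luminal TEB, with cells of at least 2 mice pooled for each, and a luminal duct sample was left out by the study for low cell numbers. No treatment or mutation separated the groups, and all carried the reporter. Levels below are in CPM (read counts scaled to a common library size, with the size of each library corrected by TMM), or in RPKM (the same per kilobase of transcript) where genes are compared with each other.

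The libraries held between 27989137 and 49221436 counts, so that 3 counts in a library equal 0.0572 to 0.173 CPM. Basal markers (Krt5, Krt14, Krt17, Trp63, Acta2, Myh11 and Oxtr) summed to at least 5342 CPM in basal and at most 248 CPM in luminal libraries, and the 9 luminal markers to at least 11620 CPM in luminal and at most 730 CPM in basal libraries, as the labels state. Mitochondrial genes took 37.5% of counts in basal TEB replicate 1, 28.5% in luminal duct replicate 3 and 17.8% in basal TEB replicate 3, against 4.34% to 10.9% elsewhere. Basal duct replicate 2 and luminal duct replicate 3 had the highest sums of immune markers, 137 and 202 CPM, against 6.48 to 48.0 CPM elsewhere. In such bulk samples a lower share of cells of a type and less RNA per cell cannot be told apart.

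The sequences upstream of 4 members are shown because Cst3 gave the families their place here, Ctsd and Serpinb5 fell in basal TEBs, and Serpinb6a rose in luminal TEBs. Each is the 250 bases before the transcription start in RefSeq (build GRCm38.p6), 5′ to 3′ on the strand of the gene. Capitals mark CACGTG, the core of an element found before many lysosomal genes, and the GC box GGGCGG or its complement CCGCCC.
Cst3, chr2:148875513-148875762, minus strand: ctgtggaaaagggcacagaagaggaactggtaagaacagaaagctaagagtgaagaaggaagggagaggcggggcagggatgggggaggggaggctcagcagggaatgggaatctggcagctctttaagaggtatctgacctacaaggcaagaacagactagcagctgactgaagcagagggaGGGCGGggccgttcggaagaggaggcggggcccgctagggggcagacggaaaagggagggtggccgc
Ctsd, chr7:142387828-142388077, minus strand: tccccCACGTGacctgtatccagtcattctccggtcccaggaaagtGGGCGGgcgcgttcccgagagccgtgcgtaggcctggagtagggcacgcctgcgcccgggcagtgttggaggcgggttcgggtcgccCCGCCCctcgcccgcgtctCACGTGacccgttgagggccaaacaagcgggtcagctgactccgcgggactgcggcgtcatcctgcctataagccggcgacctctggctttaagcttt
Serpinb5, chr1:106860925-106861174, plus strand: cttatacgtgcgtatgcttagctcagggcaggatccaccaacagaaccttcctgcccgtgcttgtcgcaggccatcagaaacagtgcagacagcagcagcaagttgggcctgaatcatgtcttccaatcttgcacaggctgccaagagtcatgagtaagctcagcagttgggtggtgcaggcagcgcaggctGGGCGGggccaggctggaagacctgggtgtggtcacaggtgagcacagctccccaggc
Serpinb6a, chr13:34002795-34003044, minus strand: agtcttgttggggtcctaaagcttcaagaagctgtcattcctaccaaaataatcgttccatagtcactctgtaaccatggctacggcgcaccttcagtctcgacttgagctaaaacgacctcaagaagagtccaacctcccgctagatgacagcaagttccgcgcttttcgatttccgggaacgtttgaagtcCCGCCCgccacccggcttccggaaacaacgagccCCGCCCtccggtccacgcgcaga

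CACGTG stood 245 and 98 bases before the start of Ctsd and in none of the other 3 sequences. At least 1 GC box stood in each of the 4, the nearest 67, 117, 58 and 23 bases before the start of Cst3, Ctsd, Serpinb5 and Serpinb6a. Both motifs were searched on both strands, and their matches did not overlap in these sequences. Among all 19827 RefSeq windows of this length outside the span of their own gene, 5.57% held CACGTG and 26.8% a GC box. Of the 24 tested members with such a window, 2 held CACGTG (Ctsd and Ctsf) and 9 a GC box. The window given for Ctsl began inside the annotated gene and is not shown. A match describes the letters only, and binding was not measured.

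Cst3 (chr2:148871722-148875512) was close to its basal level in luminal ducts and low in luminal TEBs. Its level was 71.2, 97.3 and 99.0 CPM in basal duct, 167, 101 and 101 CPM in basal TEB, 116 and 90.4 CPM in luminal duct, and 20.4, 31.9 and 15.01 CPM in luminal TEB. All 3 luminal TEB libraries lay below every other library, and the basal TEB libraries lay just above those of basal duct, with basal TEB replicate 1 apart from the other two. The fitted log2 difference between TEB and duct was 0.46 in basal and -2.20 in luminal cells, a difference of 2.66 between the changes, and that of basal against luminal cells was -0.21 in ducts and 2.45 in TEBs. Without basal TEB replicate 1, the library with the highest mitochondrial share, the basal value was 0.19. Leaving out any other library gave 0.29 to 0.59 in basal cells, and in luminal cells the values without 1 library ran from -2.55 to -2.004.

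Cstb, the cytosolic inhibitor, did not show the Cst3 pattern. It had 59.8, 64.6 and 55.8 CPM in basal duct, 60.3, 52.8 and 50.2 CPM in basal TEB, and 74.1, 80.2 and 77.3 CPM in luminal TEB. The luminal duct libraries were far apart, with 75.3 CPM in replicate 1 and 17.4 CPM in replicate 3. Per length, the ratio of Cst3 to Cstb reads within a library, which needs no scaling between libraries, was 0.158 to 0.322 in luminal TEB, 1.25 and 4.23 in luminal duct, 0.966 to 1.44 in basal duct and 1.55 to 2.25 in basal TEB. By CPM, which is not corrected for length, Cst3 was the major cystatin in every basal library and in both luminal duct libraries. It held 54.3% to 79.5% of the summed cystatin CPM there, and 15.8% to 27.8% in luminal TEBs, where Cstb held 70.02% to 81.5%. Per length, Cstb was slightly ahead of Cst3 in basal duct replicate 1, at a ratio of 0.966.

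The other cystatins were scarce. Cstdc5, a stefin-like gene, had 0.250 and 2.06 CPM in luminal duct and 1.79 to 2.06 CPM in luminal TEB, and 1 count in all 6 basal libraries. Cst6, a secreted inhibitor, had at most 0.273 CPM in any library. Csta1, which did not pass the filter, had 3.87 CPM in luminal duct replicate 3, 0.189 CPM in basal TEB replicate 2 and 0 elsewhere.

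**Figure D1:**
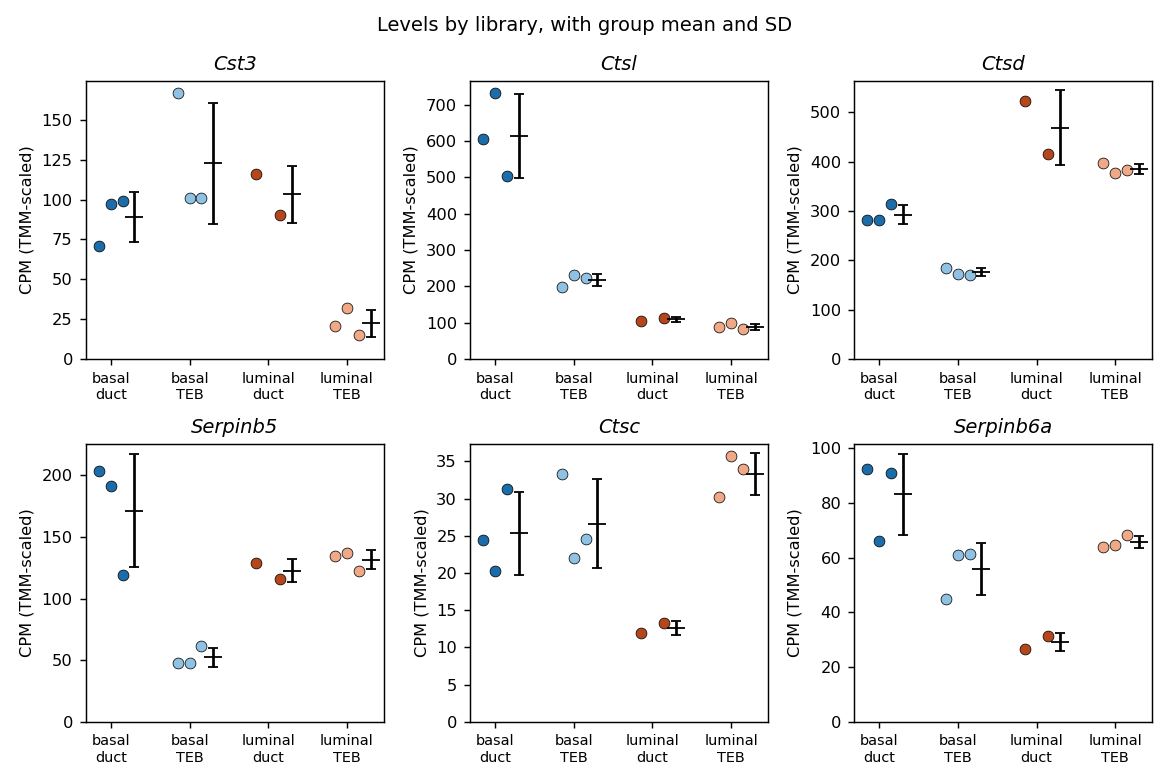
Expression of 6 members in each library, in CPM after TMM scaling on linear axes that start at 0; points are libraries and the bars beside them the group mean and SD. Cst3 sat between 15.01 and 31.9 CPM in luminal TEB and above 71 CPM elsewhere, Ctsl, Ctsd and Serpinb5 were lower in every basal TEB than in any basal duct library, and Ctsc and Serpinb6a were lowest in the 2 luminal duct libraries.

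The comparison of TEBs with ducts in basal cells asked which of these genes change at the growing tip. Ctsl, Ctsd and Serpinb5 fell in basal TEBs. Apart from Cst3, this is 3 of 44 members, where 1.32% of all 17370 genes tested were called in either direction and 1.16% as lower, at an FDR below 0.05 (edgeR quasi-likelihood p, adjusted over all genes by Benjamini-Hochberg). The median log2 difference over the 45 members was -0.51, and that over all genes -0.03. The summed basal markers were also lower, at 15553 to 19176 CPM in basal duct and 5342 to 8297 CPM in basal TEB, as were those of fibroblasts, at 444 to 881 and 227 to 421 CPM, and their part in these values was not tested. In this edgeR test 0 members other than Cst3 were called higher, 3 were higher at an unadjusted p below 0.05, and DESeq2 called 1 higher, limma voom 2 and the likelihood ratio test 1. Groups did not overlap for 15 members that were lower and, beside Cst3, 5 that were higher in TEBs, against 11.9% and 8.88% of all genes (20.8% in either direction).

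Ctsl, a lysosomal cysteine protease that is also secreted, had 605, 732 and 503 CPM in basal duct and 199, 232 and 222 CPM in basal TEB. The lowest duct library held more than any TEB library by a wide margin. The log2 difference was -1.49 (SE 0.18, edgeR FDR = 0.0021), and it stayed past the threshold without any 1 library (FDR 0.0020 to 0.018). In luminal cells Ctsl was low in both places, at 105 and 114 CPM in duct and 88.5, 97.9 and 81.5 CPM in TEB.

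Ctsd, the main lysosomal aspartic protease, had 281, 281 and 314 CPM in basal duct and 185, 173 and 171 CPM in basal TEB. The groups did not overlap, with a log2 difference of -0.73 (SE 0.15, edgeR FDR = 0.039). The call was lost without any 1 of the basal duct libraries, basal TEB replicates 1 or 3 or any 1 of the luminal TEB libraries (FDR 0.071 to 0.17), with a log2 difference of -0.79 to -0.68 throughout. It was also lost when libraries were scaled by their totals alone (-0.89, FDR = 0.31), with no filter on low counts (FDR = 0.051) and with only the compared groups in the fit (FDR = 0.074). Luminal cells held 523 and 416 CPM in duct and 397, 376 and 384 CPM in TEB.

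Serpinb5 (maspin) had 204, 191 and 119 CPM in basal duct and 47.9, 47.8 and 61.1 CPM in basal TEB. Every duct library was above every TEB library, although basal duct replicate 3 was nearer to them. The log2 difference was -1.71 (SE 0.21, edgeR FDR = 0.0029), and the call remained without any 1 library (FDR 0.0010 to 0.018). Luminal cells kept 129 and 116 CPM in duct and 135, 137 and 123 CPM in TEB, so that in TEBs it was lower in basal than in luminal cells.

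Because scaling between libraries moves all values of a library together, ratios within a library were also taken. The reference was Ctsb, an abundant lysosomal cysteine protease that was itself lower in every basal TEB than in any basal duct library. Per length, reads of Ctsl stood to those of Ctsb as 2.89, 3.91 and 2.75 in basal duct and 1.32, 1.74 and 1.74 in basal TEB. Serpinb5 stood to Ctsb as 0.750, 0.785 and 0.501 in basal duct and 0.245, 0.275 and 0.369 in basal TEB. For Ctsd the ratios were 1.36, 1.51 and 1.74 in basal duct and 1.24, 1.30 and 1.35 in basal TEB, a gap that was narrow beside the spread in ducts. In each case the groups did not overlap, with an exact two-sided permutation p of 0.1, the smallest that 3 against 3 libraries allow. These genes were taken because they were called in the same libraries, so this p adds no separate support.

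Ctsb itself had 503, 451 and 440 CPM in basal duct and 362, 321 and 307 CPM in basal TEB, and its log2 difference of -0.49 (SE 0.16) did not pass (edgeR FDR = 0.20). Its annotated span overlaps that of Fdft1. Since the library kit does not mark strand, reads may be shared where their exons overlap, which was not checked. Ctsf had 71.2, 66.5 and 61.2 CPM in duct and 13.7, 43.7 and 32.8 CPM in TEB (log2 difference -1.14, SE 0.37, edgeR FDR = 0.19). Ctsh, an aminopeptidase, had 12.7 to 25.7 CPM in duct and 7.56 to 16.2 CPM in TEB (log2 difference -0.79, SE 0.32, edgeR FDR = 0.28). Summed over all 23 cathepsins, basal duct held 1769 ± 124 CPM (SD, n = 3) and basal TEB 1059 ± 56.9 CPM (SD, n = 3). By CPM, Ctsl led in each basal duct library, with 30.5% to 38.6% of the sum. The longer gene Ctsb led by CPM in each basal TEB library, with 29.7% to 32.1%. Per length, Ctsl was the most abundant cathepsin in both groups, with 311 ± 58.3 RPKM in duct and 110 ± 8.74 RPKM in TEB (SD, n = 3 each).

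Several serpins were higher in basal TEBs without passing the test. Serpine2, protease nexin-1, which blocks thrombin and plasminogen activators, had 12.6, 12.8 and 50.1 CPM in duct and 65.3, 95.7 and 133 CPM in TEB. The log2 difference was 1.96 (SE 0.56, edgeR FDR = 0.13), and without basal duct replicate 3, the highest duct library, it was 2.95 (FDR = 0.015). Serpinf1 had 95.9, 64.2 and 158 CPM in duct and 247, 236 and 242 CPM in TEB, where the groups did not overlap (log2 difference 1.19, edgeR FDR = 0.35). Serpinb11, an intracellular clade B serpin, had 155, 40.1 and 141 CPM in duct and 264, 195 and 321 CPM in TEB (log2 difference 1.21, SE 0.52, edgeR FDR = 0.31). Serpinb6b ran the other way, with 35.1 to 52.1 CPM in duct and 12.53 to 19.7 CPM in TEB (log2 difference -1.31, edgeR FDR = 0.40). Limma voom called Serpine2, Serpinf1 and Serpinb6b (FDR = 0.0076, 0.011 and 0.041), DESeq2 Serpine2 and Ctsb (FDR = 0.016 and 0.019), and the likelihood ratio test Serpine2 (FDR = 0.021). With Ctsl, Ctsd and Serpinb5 among them, limma voom called 5 members lower and the likelihood ratio test 4. Each of these counts includes a lower member not listed here.

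In luminal cells, with 2 duct libraries, Ctsc and Serpinb6a rose in TEBs. They were 2 of the 44 tested members other than Cst3, where 1.41% of all genes tested were called in either direction and 0.639% as higher. Among the other members 0 were called lower by edgeR, 7 were lower at an unadjusted p below 0.05, and DESeq2 called 3 lower, limma voom 0 and the likelihood ratio test 3. Groups did not overlap for 7 members that were higher and, beside Cst3, 6 that were lower, against 26.2% and 17.4% of all genes (43.7% in either direction). Ctsc, dipeptidyl peptidase I, which activates serine proteases of leukocyte granules, had 11.95 and 13.2 CPM in luminal duct and 30.2, 35.7 and 34.0 CPM in luminal TEB. Every TEB library was above both duct libraries, with a log2 difference of 1.40 (SE 0.30, edgeR FDR = 0.046). The call was lost without either luminal duct library, any 1 luminal TEB library, basal duct replicates 1 or 3 or basal TEB replicate 3 (FDR 0.059 to 0.17). It was also lost with DESeq2 size factors (FDR = 0.052), upper-quartile scaling (FDR = 0.051) and limma voom (FDR = 0.054), in all under 14 of 24 other settings.

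Serpinb6a, an intracellular inhibitor, had 26.7 and 31.4 CPM in luminal duct and 64.0, 64.8 and 68.3 CPM in luminal TEB, with no overlap. The log2 difference was 1.18 (SE 0.22, edgeR FDR = 0.029), and the call was lost without luminal duct replicate 3, any 1 luminal TEB library or basal duct replicate 1 (FDR 0.056 to 0.14). In basal cells it had 92.4, 66.1 and 91.0 CPM in duct and 44.7, 60.8 and 61.4 CPM in TEB, with a log2 difference of -0.58 (SE 0.19, edgeR FDR = 0.20). Its annotated span overlaps those of Nqo2, Ripk1 and 1110046J04Rik. Where their exons overlap, which was not checked, reads cannot be told apart by strand. Neither luminal call was made when libraries were scaled by their totals alone (FDR = 0.068 for Ctsc and 0.11 for Serpinb6a).

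The ratio of Serpinb6a to Ctsb reads within a library, per length, was 0.129 and 0.196 in luminal duct and 0.344, 0.4002 and 0.413 in luminal TEB. The groups did not overlap, with an exact two-sided permutation p of 0.2, the smallest that 3 against 2 libraries allow. Serpinb6a was taken because it was called, so this p adds no separate support. In basal cells the ratio was 0.461, 0.368 and 0.520 in duct and 0.310, 0.476 and 0.503 in TEB. There the groups overlapped (exact two-sided permutation p = 0.7).

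Other luminal members did not pass. Ctse, an aspartic protease of epithelial cells, had 59.5 and 36.0 CPM in duct and 159, 69.7 and 93.1 CPM in TEB (log2 difference 1.17, edgeR FDR = 0.41). Ctsh had 91.0 and 112 CPM in duct and 58.8, 57.9 and 56.6 CPM in TEB (log2 difference -0.82, SE 0.34, edgeR FDR = 0.26). The median log2 difference of the 45 members was -0.05 and that of all genes 0.04.

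The difference between the basal and the luminal TEB change is the contrast that chose the families. Apart from Cst3, whose test is not read, Serpinb5 (-1.81 on the log2 scale) and Serpinb6a (-1.76) were past the threshold, where 0.443% of all genes were (0.0806% as higher and 0.363% as lower in basal cells), and nothing is read from that count. In Cst3, Ctsz and Serpinb6a the TEB and duct libraries did not overlap in either cell type and lay in opposite order, as in 3.6% of all genes. Cst3 chose the families by its differing changes, so it does not count towards that share.

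**Figure D2:**
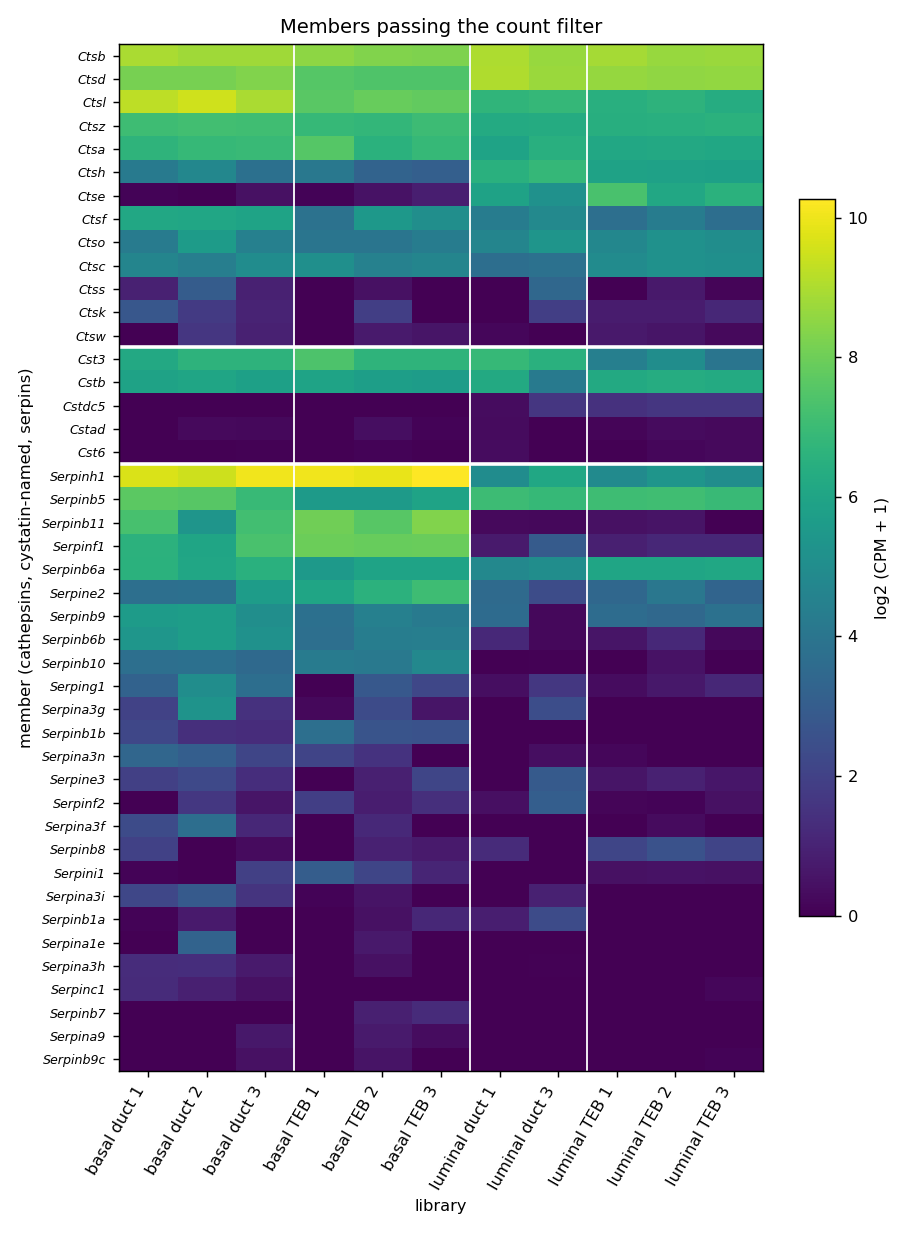
Heat map of log2 (CPM + 1) for the members that passed the filter on low counts, 1 of them not drawn, in rows grouped as cathepsins, cystatin-named genes and serpins and ordered by mean level within each, with the 11 libraries in columns. Serpinh1, Serpinf1 and Serpinb11 were bright in the 6 basal libraries and Ctse in the 5 luminal libraries.

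Basal and luminal cells differed in far more members than TEBs and ducts did. In ducts 15 of the 44 tested members other than Cst3 differed between basal and luminal cells, where 22.3% of all genes did. Of these 11 were higher in basal cells (12.6% of all genes) and 4 were lower (9.71% of all genes). In TEBs 17 of 44 differed, against 25.1% of all genes, with 12 higher in basal cells (13.2% of all genes) and 5 lower (11.8% of all genes). The median log2 difference over the 45 members was 1.52 in ducts and 1.29 in TEBs, against 0.08 and 0.04 over all genes, and 1.51 and 1.29 with genes at 0 in a group set to their bound. The families differed, with medians in ducts of 0.61 for cathepsins, -0.21 for cystatin-named genes, Cst3 included, and 4.12 for serpins. In TEBs they were -0.32, -0.51 and 4.73. Serpins without a luminal count, such as Serpinb1b, passed the filter only through their basal counts. Groups did not overlap for 21 members that were higher and 5 that were lower in basal ducts (24.8% and 21.2% of all genes, 46% in either direction), and for 14 and 10 in TEBs (22.6% and 27.2%, 49.8% in either direction). Both comparisons called 12 members, which is 80% of those called in ducts and 70.6% of those called in TEBs, and all 12 had the same direction in both. Over all genes these shares were 69.4% and 61.8%.

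Of the 27 tested serpins, 7 were called higher in basal ducts and 9 in basal TEBs, against 12.6% and 13.2% of all genes, and 20 and 17 were not past the threshold. Serpinh1 was the most abundant member per length in basal cells, with 351 ± 69.5 RPKM in duct and 446 ± 52.9 RPKM in TEB (SD, n = 3 each). Its level was 814, 715 and 1046 CPM in basal duct and 1067, 972 and 1228 CPM in basal TEB, against 30.6 and 68.6 CPM in luminal duct and 29.0, 40.3 and 32.0 CPM in luminal TEB. All basal libraries were more than 10 times above all luminal ones. The log2 difference between basal and luminal cells was 4.12 in ducts (SE 0.37, edgeR FDR = 1.3e-05, and 4.81 without luminal duct replicate 3) and 5.01 in TEBs (SE 0.33, edgeR FDR = 7.1e-07).

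Serpinf1, which in other tissues restrains vessel growth, had 64.2 to 158 CPM in basal duct and 236 to 247 CPM in basal TEB. In luminal cells it had 0.660 and 6.74 CPM in duct and 0.874 to 1.22 CPM in TEB. The log2 difference was 4.89 in ducts (SE 0.77, edgeR FDR = 6.8e-04), and without luminal duct replicate 3 it was 7.32 and without replicate 1 it was 3.98. In TEBs it was 7.77 (SE 0.74, edgeR FDR = 1.1e-05). Markers of fibroblasts, a cell type that also makes Serpinh1 and Serpinf1, summed to 227 to 881 CPM in basal libraries, to 6.03 and 267 CPM in luminal ducts and to 12.1 to 54.4 CPM in luminal TEBs. Of the 8 fibroblast markers at most 3 were at 0 in any library (Pdgfrb, Lum and Dpt in basal TEB replicate 1), and the part of fibroblasts in these levels was not tested.

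Serpinb11 had 40.1 to 321 CPM in basal and at most 0.438 CPM in luminal libraries, a log2 difference of 9.30 in ducts (SE 0.96, edgeR FDR = 3.2e-05) and 9.90 in TEBs (SE 0.78, edgeR FDR = 2.6e-06). Serpinb10, a neighbour of the same clade, had 10.4 to 26.3 CPM in basal cells, 1 count in luminal ducts and 22 counts in luminal TEBs, and passed in both comparisons. Its ratio of basal to luminal duct was 811 (95% exact counting interval 145 to 32067, edgeR FDR = 0.0045), and all 22 luminal TEB counts were in replicate 2. Serpinb1b, related to inhibitors of neutrophil elastase, had 1.49 to 3.57 CPM in basal duct and 5.04 to 12.47 CPM in basal TEB and no count in the 5 luminal libraries. Against a floor of 3 counts over the group this was at least 53.5-fold higher in basal ducts (35.5-fold without basal duct replicate 1) and at least 320-fold higher in basal TEBs. The duct call was lost with only the compared groups in the fit (FDR = 0.054). Serpinb6b had 12.53 to 52.1 CPM in basal and 0.154 to 1.28 CPM in luminal libraries (log2 differences of 5.85 in ducts and 4.73 in TEBs, edgeR FDR = 0.0010 and 7.3e-04). Without luminal duct replicate 1 its duct value was 7.996, without replicate 3 it was 5.09, and without luminal TEB replicate 2 its TEB value was 5.68.

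Serpine2 was past the threshold in TEBs. It had 65.3 to 133 CPM in basal and 9.04 to 15.8 CPM in luminal TEBs (log2 difference 3.09, SE 0.58, edgeR FDR = 0.0019). In ducts its log2 difference was 1.75 (edgeR FDR = 0.074), which passed with DESeq2 (FDR = 0.020), with the likelihood ratio test (FDR = 0.031) and without basal duct replicate 2 (2.06, FDR = 0.046) and was 0.76 without basal duct replicate 3 and 2.60 without luminal duct replicate 1. The change in this difference between ducts and TEBs was not past the threshold.

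Serpinb5 and Serpinb6a departed from most other serpins. Serpinb8 was also lower in basal than in luminal TEBs, at means of 0.54 and 3.92 CPM, and was not called. Serpinb5 was the only serpin called lower in basal cells of TEBs, with a log2 difference of -1.33 (SE 0.21, edgeR FDR = 5.1e-04). Serpinb6a was higher in basal cells in ducts, with 66.1 to 92.4 against 26.7 and 31.4 CPM (log2 difference 1.52, SE 0.23, edgeR FDR = 4.7e-04), and in TEBs basal cells had 44.7 to 61.4 and luminal cells 64.0 to 68.3 CPM. Serpinb5 led the serpins in each luminal library, with 45.0% to 55.9% of their summed CPM, and Serpinb6a came next in luminal TEBs.

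Among cathepsins the calls were divided. Ctsl was higher in basal cells, by 2.49 log2 units in ducts (SE 0.21, edgeR FDR = 8.5e-06) and 1.29 in TEBs (SE 0.17, edgeR FDR = 1.7e-04). Ctsz, a carboxypeptidase, had 135 to 142 CPM in basal and 76.8 and 78.7 CPM in luminal ducts (log2 difference 0.83, SE 0.16, edgeR FDR = 0.0023). In TEBs it had 111 to 130 against 86.0 to 91.8 CPM (log2 difference 0.42, SE 0.14, edgeR FDR = 0.042), a call lost without any 1 TEB library or basal duct replicates 1 or 3 (FDR 0.050 to 0.16). It was also lost with the likelihood ratio test (FDR = 0.051) and with no filter on low counts (FDR = 0.097), and the log2 difference was 0.0027 (FDR = 0.998) when libraries were scaled by their totals alone. The gene overlaps Nelfcd.

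Ctsf had 61.2 to 71.2 CPM in basal and 18.9 and 27.6 CPM in luminal ducts (log2 difference 1.51, SE 0.43, edgeR FDR = 0.024), lost without basal duct replicate 1 or either luminal duct library (FDR 0.051 to 0.14) and with scaling by totals (FDR = 0.071). Ctsc was higher in basal ducts by 1.01 log2 units (SE 0.30, edgeR FDR = 0.030), lost without basal duct replicates 1 or 3, either luminal duct library or luminal TEB replicates 2 or 3 (FDR 0.050 to 0.10), with limma voom (FDR = 0.050) and with only the compared groups in the fit (FDR = 0.10). Ctsa, which protects lysosomal sialidase and galactosidase, had 92.3 to 187 CPM in basal and 69.2 to 72.8 CPM in luminal TEBs (log2 difference 0.90, SE 0.25, edgeR FDR = 0.018). That call was lost without basal TEB replicate 1, which held the 187 CPM, or any 1 luminal TEB library (FDR 0.051 to 0.061), and with scaling by totals the log2 difference was 0.38 (FDR = 0.23). The gene overlaps Neurl2 and Pltp.

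Ctsd, Ctse and Ctsh were higher in luminal cells. Ctsd was abundant in basal cells too, at 281 to 314 CPM in basal duct and 171 to 185 CPM in basal TEB. Ctse had at most 0.812 CPM in any basal library and 36.0 to 159 CPM in luminal libraries, a log2 difference between basal and luminal cells of -8.43 in ducts (SE 0.90, edgeR FDR = 4.0e-05) and -7.85 in TEBs (SE 0.83, edgeR FDR = 2.7e-05). Without basal duct replicate 3 the duct value was -10.35, and without basal TEB replicate 3 the TEB value was -8.57. Ctsh had 7.56 to 25.7 CPM in basal and 56.6 to 112 CPM in luminal libraries, with log2 differences of -2.45 and -2.43 in ducts and TEBs (edgeR FDR = 3.2e-04 and 1.7e-04). Ctsd was lower in basal cells by 0.68 log2 units in ducts (edgeR FDR = 0.010, 0.062 without luminal duct replicate 1, 0.22 with libraries scaled by their totals and 0.10 with only the compared groups in the fit) and by 1.13 in TEBs (edgeR FDR = 1.5e-04). Per length, Ctsd was the most abundant member in luminal cells, with 240 ± 38.6 RPKM in duct (SD, n = 2) and 197 ± 5.31 RPKM in TEB (SD, n = 3). Cstdc5 was at least 37.9-fold lower in basal than in luminal ducts, a call that rests on luminal duct replicate 3 (FDR = 0.018, and 0.071 with a bound of 10.6 without it; the bound was 87.1 without replicate 1) and was lost with only the compared groups in the fit (FDR = 0.12), and its FDR in TEBs was 0.026, between 0.051 and 0.076 without any 1 TEB library.

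**Figure D3:**
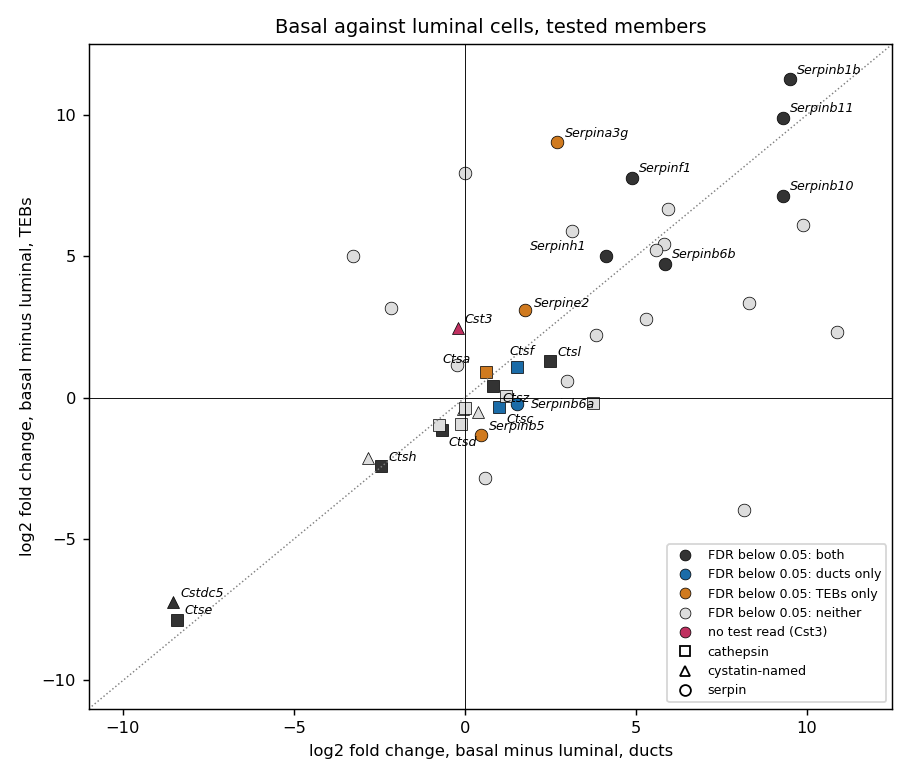
Log2 fold change of basal against luminal cells in ducts (horizontal axis) and in TEBs (vertical axis) for the tested members, 1 of them not drawn, with shape for the family and colour for whether the edgeR FDR was below 0.05 in each comparison; the dotted line marks equal values. The 12 members called in both comparisons lie at the upper right or lower left, and the largest values on either side belong to genes near 0 in one cell type, where the fitted value depends on the prior count and is no bound.

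The clade B serpins lie in clusters of 12 genes on chromosome 1 (106861175 to 107608978, GRCm38.p6) and 16 genes on chromosome 13 (32842092 to 34002794), and 25 clade A serpins lie on chromosome 12 (103616675 to 104414334). Expression did not extend over whole clusters. On chromosome 1 Serpinb5, Serpinb11, Serpinb10 and Serpinb8 reached 1 CPM in some group, while the 6 neighbouring genes between Serpinb5 and Serpinb11 had at most 22 counts each. Serpinb5 and Serpinb11, of one cluster, differed in the place of basal TEB among the groups, since Serpinb5 was lowest in basal TEB (52.3 ± 7.66 CPM, SD, n = 3) and Serpinb11 highest there (260 ± 63.1 CPM, SD, n = 3). Serpinb8 had 3.31 to 5.01 CPM in luminal TEB, 1.39 and 0 CPM in luminal duct and 0 to 2.91 CPM in basal libraries.

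On chromosome 13, Serpinb6a, Serpinb6b, Serpinb9 and Serpinb1b were expressed and 6 of the 16 genes had no count. Serpinb9, an inhibitor of granzyme B, had 32.5 to 50.8 CPM in basal duct, 12.8 to 21.2 CPM in basal TEB and 9.98 to 13.2 CPM in luminal TEB, with 10.9 and 0.164 CPM in luminal duct. Serpinb1a reached 4.03 CPM in luminal duct replicate 3 and at most 1.23 CPM elsewhere. These clusters hold close copies (Serpinb6, Serpinb9, Serpinb3 and the Serpina1 and Serpina3 genes), and reads that fit several copies may have been split or dropped in counting.

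**Figure D4:**
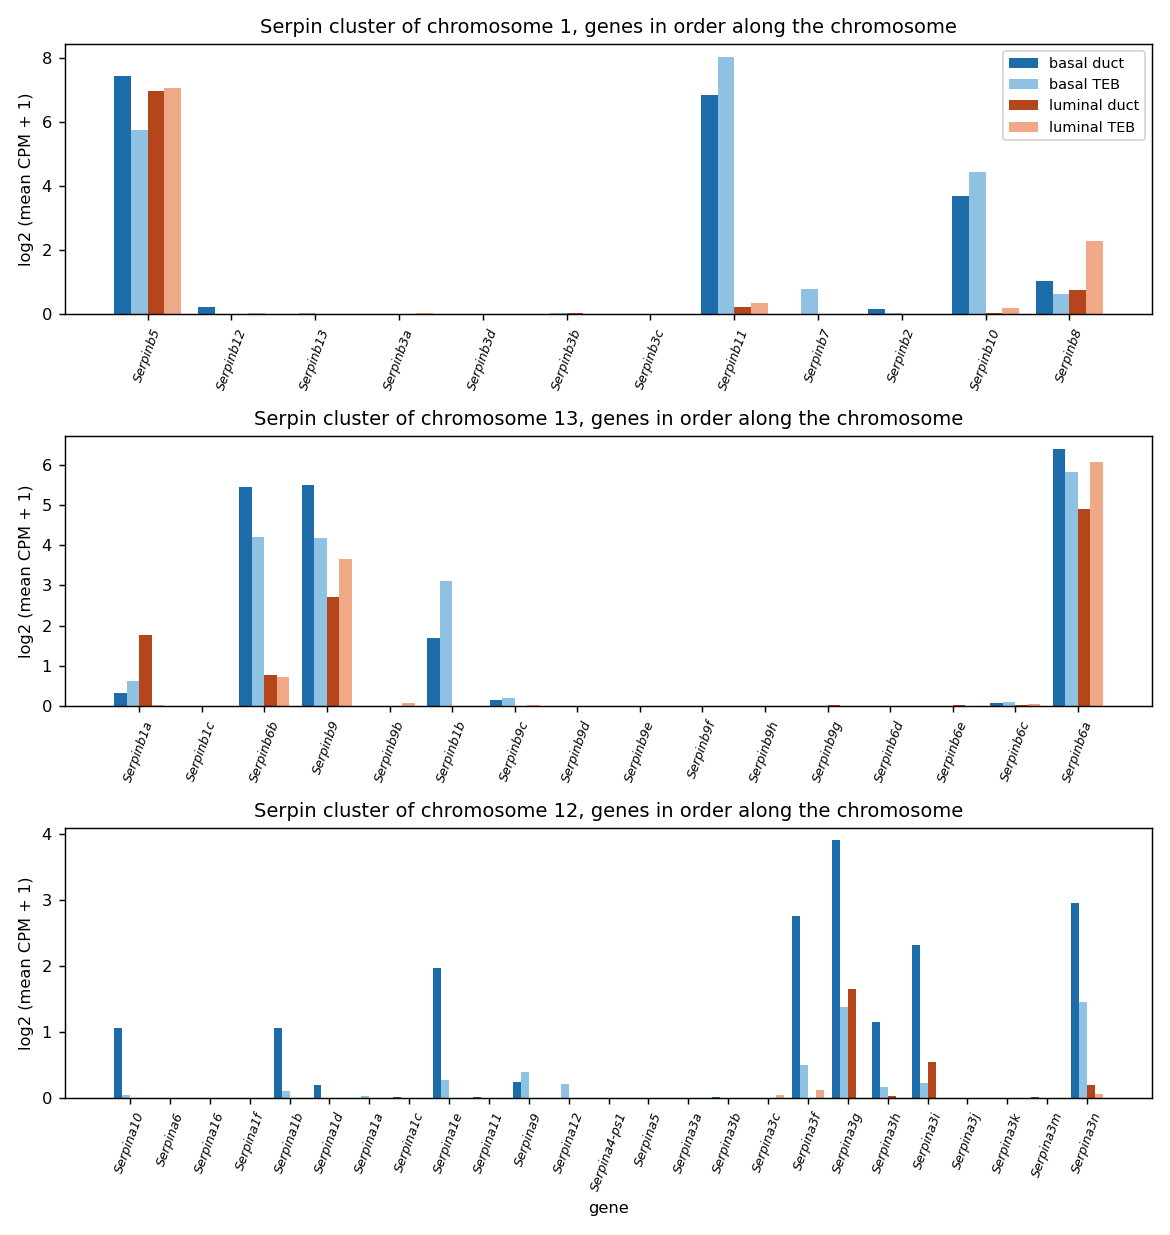
Mean level of each serpin of 3 clusters, as log2 (mean CPM + 1) in the 4 groups, with genes in their order along chromosomes 1, 13 and 12. Serpinb11 and Serpinb10 have far taller bars in basal than in luminal groups, Serpinb5 and Serpinb6a have tall bars in all 4 groups, and Serpina3g has its tallest bar in basal duct.

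The clade A serpins, some of which are plasma inhibitors made mainly by liver, were low and largely confined to basal duct libraries among those sequenced. Serpina9 went the other way, with 22 counts in basal duct and 41 in basal TEB. Serpina3g had 3.07, 37.1 and 1.77 CPM in basal duct, 0.173, 4.13 and 0.504 CPM in basal TEB, 0 and 4.32 CPM in luminal duct and no count in luminal TEB. Basal duct replicate 2 and luminal duct replicate 3 were the highest of their groups. In TEBs Serpina3g was at least 107-fold higher in basal than in luminal cells (edgeR FDR = 0.043), a call lost without basal TEB replicates 2 or 3, any 1 luminal TEB library or basal duct replicates 1 or 3 (FDR 0.051 to 0.12) and with limma voom (FDR = 0.086). Basal TEB replicate 2 held 196 of the 217 counts, and without it the bound was 19.7-fold. Serpina1e had 8.76 CPM in basal duct replicate 2, 0.611 CPM in basal TEB replicate 2 and 0 elsewhere. Serpina3n had 9.34, 7.47 and 3.44 CPM in basal duct, 3.35, 1.85 and 0 CPM in basal TEB and at most 0.288 CPM in luminal libraries.

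Several members known from leukocytes, vessels and stroma were highest in basal duct or in luminal duct replicate 3. Ctss, the cathepsin of antigen-presenting cells, had 6.87 CPM in basal duct replicate 2, 9.83 CPM in luminal duct replicate 3 and 0 to 0.924 CPM in the other 9 libraries. Serping1, the C1 inhibitor of complement, had 8.42, 32.0 and 11.98 CPM in basal duct, 0, 6.08 and 3.59 CPM in basal TEB and 0.269 to 2.14 CPM in luminal libraries. Ctsk, a collagen-degrading cathepsin of osteoclasts and fibroblasts, reached 5.99 CPM in basal duct replicate 1, 2.76 CPM in luminal duct replicate 3 and 2.72 CPM in basal TEB replicate 2. Ctsw, a lymphocyte cathepsin whose gene overlaps Fibp, was highest in basal duct replicate 2 at 2.05 CPM. Not every member with a role in leukocytes followed. Ctsc had 20.2 CPM in basal duct replicate 2 and 13.2 CPM in luminal duct replicate 3, and was highest in luminal TEB replicate 2 at 35.7 CPM. Serpinb9 was highest in basal duct but had 4 counts in luminal duct replicate 3, against 481 in replicate 1.

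The immune markers (10 genes) summed to 33.7 to 137 CPM in basal duct, 29.8 to 40.9 CPM in basal TEB, 12.9 and 202 CPM in luminal duct and 6.48 to 22.3 CPM in luminal TEB. Endothelial markers (6 genes) summed to 224 CPM in basal duct replicate 2 and to 5.38 to 53.6 CPM elsewhere. Adipocyte markers (5 genes) summed to 185 CPM in basal duct replicate 2, 78.5 CPM in luminal duct replicate 3 and 0 to 25.4 CPM elsewhere. In basal duct replicate 2 and luminal duct replicate 3, respectively, 2 and 3 of the 10 immune markers and 2 and 3 of the 5 adipocyte markers (Adipoq and Plin1 in both) were at 0, while all 6 endothelial markers had counts. Elsewhere up to 6 immune, 4 endothelial and 5 adipocyte markers were at 0. The part of such cells in the levels of Ctss, Serping1, Serpina3g and Serpina1e was not tested. Without basal duct replicate 2 and luminal duct replicate 3 together, an alternative chosen after seeing the data, Ctsl, Ctsd and Serpinb5 remained called in basal TEBs against basal ducts, the Ctsc call in luminal cells was lost, and so were those of Cstdc5 and Ctsf between the cell types in ducts.

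**Figure D5:**
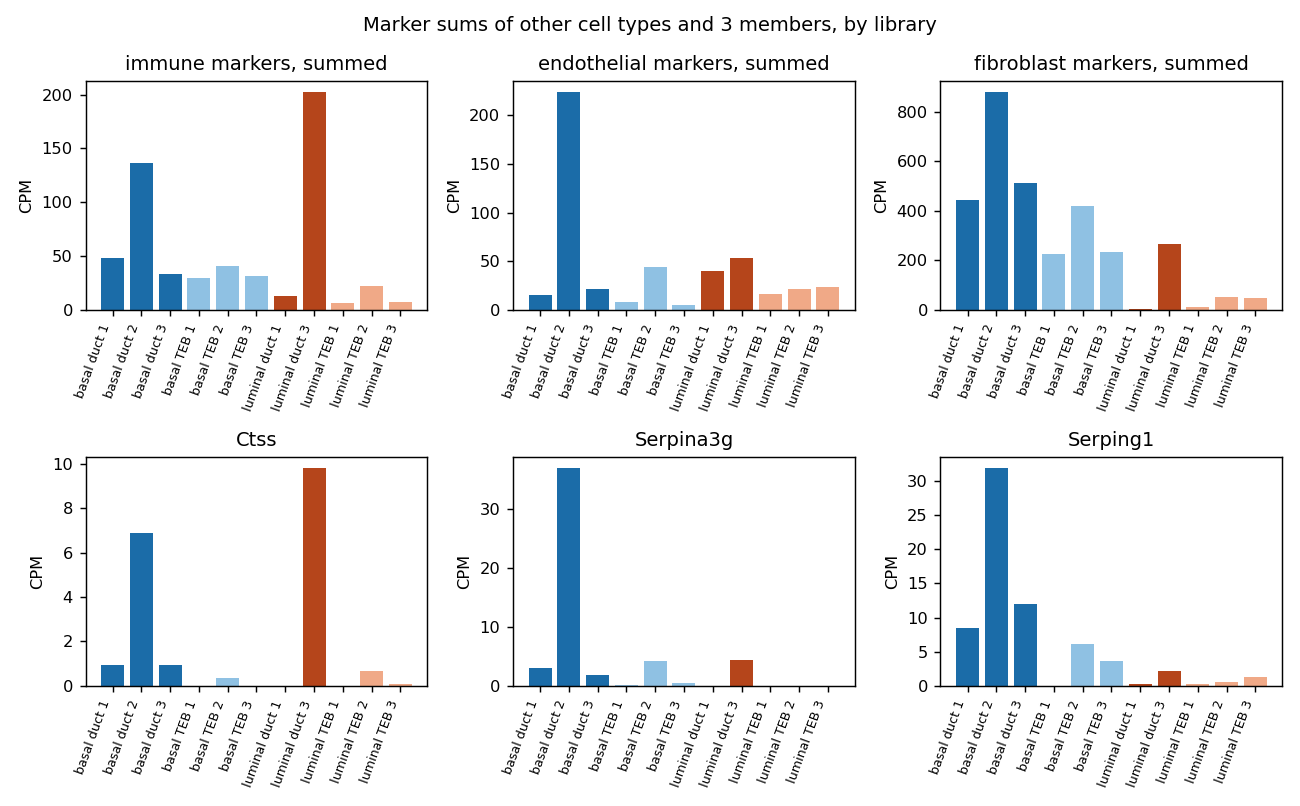
Summed CPM of the immune, endothelial and fibroblast markers (top) and CPM of Ctss, Serpina3g and Serping1 (bottom) in each library, on linear axes from 0. Basal duct replicate 2 has the tallest bar for endothelial and fibroblast markers, Serpina3g and Serping1, and luminal duct replicate 3 for immune markers and Ctss.

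Serpins of plasma were near 0 or variable. Serpinc1 (antithrombin) had 0.385 to 1.40 CPM in basal duct and 0 counts in basal TEB and luminal duct, which makes basal ducts at least 31.1-fold above basal TEBs against a floor of 3 counts over the group (not past the threshold). Serpinf2, the plasmin inhibitor, had 7.48 CPM in luminal duct replicate 3 and at most 2.71 CPM elsewhere. Serpini1 (neuroserpin) had 1.09 to 7.10 CPM in basal TEB, 0 to 2.87 CPM in basal duct, 0.359 to 0.4001 CPM in luminal TEB and 0 in luminal duct. Serpind1 (heparin cofactor) had 20 counts in all, in basal libraries, and overlaps Pi4ka. Ctso had 14.7 to 48.9 CPM in all libraries with no call.

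A list of 47 partner genes (proteases, receptors, sorting and folding factors that act with these families), of which 43 were tested, was read beside the members. Between TEBs and ducts in basal cells edgeR called 0 of them, with 3 higher and 4 lower at an unadjusted p below 0.05, while DESeq2, limma voom and the likelihood ratio test called 3 each. In luminal cells edgeR called the thrombin receptor F2r as higher in TEBs (log2 difference 3.29, FDR = 0.028), a call lost without replicate 3 of luminal duct, basal duct or basal TEB or any 1 luminal TEB library (FDR 0.052 to 0.10), with limma voom (FDR = 0.31), scaling by totals (FDR = 0.086) or only the compared groups in the fit (FDR = 0.11), and the value was 4.95 without luminal duct replicate 1. Between basal and luminal cells, 15 of the 43 were higher and 10 lower in basal ducts, against 12.6% and 9.71% of all genes, and 11 were higher and 9 lower in basal TEBs, against 13.2% and 11.8%. The largest called differences in ducts were of Procr, P3h1, F2r and Plau, higher in basal cells, and of F2, Klk10, Klk11 and Spint1, lower. In TEBs they were of P3h1, Plod2, Vldlr and Fkbp10, higher, and of Klk10, Plaur, F2rl1 and F3, lower. Of these, Procr, the protein C receptor, was at least 279-fold higher in basal ducts, where its level was 3.07, 32.6 and 4.21 CPM, and 81.2-fold without basal duct replicate 2, the library with the highest endothelial sum, while F2 (prothrombin) was at least 145-fold and the kallikrein Klk10 at least 78.8-fold lower, each against a floor of 3 counts over the group at 0. In TEBs the log2 difference was -4.61 for Plaur, the urokinase receptor (edgeR FDR = 0.0037), -4.09 for F2rl1, a protease-activated receptor (edgeR FDR = 0.0086), and -3.90 for F3, tissue factor (edgeR FDR = 2.2e-05). The values were -5.30 for Plaur without basal TEB replicate 2 and -5.41 for F2rl1 without basal TEB replicate 3. In ducts the calls of Klk10 (edgeR FDR = 0.060) and of the kallikrein Klk11 (edgeR FDR = 0.23) were lost without luminal duct replicate 3, and that of Klk11 also without any 1 basal duct library (edgeR FDR 0.063 to 0.079) and that of Klk10 with only the compared groups in the fit (edgeR FDR = 0.072). In TEBs the call of Klk10 was lost without basal TEB replicate 2 or 3, luminal duct replicate 3 or any 1 luminal TEB library (edgeR FDR 0.055 to 0.090) and with no filter on low counts (edgeR FDR = 0.054).

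Of the 8 procollagen folding genes, the partners of Serpinh1, 7 were higher in basal ducts and 6 in basal TEBs, against 12.6% and 13.2% of all genes. P3h1, a prolyl hydroxylase, had 78.8 ± 23.0 and 105 ± 5.33 CPM in basal duct and TEB (SD, n = 3 each), and 0.501 ± 0.708 (SD, n = 2) and 1.89 ± 0.866 CPM (SD, n = 3) in the luminal groups. Plod2, a lysyl hydroxylase, was higher in basal cells by 4.27 log2 units in ducts and 5.27 in TEBs (edgeR FDR = 1.3e-05 and 6.3e-07), and Fkbp10 by 3.71 and 4.84 (edgeR FDR = 7.5e-06 and 3.7e-07). P4ha2 was the exception, lower in basal ducts (log2 difference -4.32, edgeR FDR = 0.038), a value that rests on luminal duct replicate 1 (-1.52 without it, FDR = 0.52) and was not called by limma voom (FDR = 0.098) or with scaling by totals (FDR = 0.059).

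The serpin targets and other protease inhibitors were split between the cell types. Plau, the urokinase that Serpine2 blocks, was higher in basal cells by 5.11 log2 units in ducts and 3.95 in TEBs (edgeR FDR = 1.1e-06 and 4.9e-07), and Lrp1 and Vldlr, receptors that take up serpin complexes, were also called higher there. In luminal cells the membrane proteases St14 and Prss8 and their Kunitz inhibitors Spint1 and Spint2 were higher in both places, although Spint2 in ducts was not called without luminal duct replicate 1 (FDR = 0.058), with scaling by totals (FDR = 0.23) or with only the compared groups in the fit (FDR = 0.077) and Prss8 in TEBs not without basal TEB replicates 2 or 3 or any 1 luminal TEB library (FDR 0.061 to 0.11). Spint1, for instance, had 212 ± 63.3 CPM (SD, n = 2) and 187 ± 5.62 CPM (SD, n = 3) in luminal duct and TEB and 10.3 ± 5.88 and 17.1 ± 6.32 CPM in basal duct and TEB (SD, n = 3 each). Of the 12 genes of lysosomes and sorting, Psap was higher in basal cells in both places (in TEBs with an FDR of 0.055 and 0.056 without luminal TEB replicates 3 and 1, and of 0.54 with scaling by totals) and Lamp1 in ducts (FDR = 0.084 without luminal duct replicate 3, 0.11 with scaling by totals and 0.095 with only the compared groups in the fit), and Sort1 was lower in both, by 3.90 log2 units in ducts and 2.96 in TEBs (edgeR FDR = 2.4e-05 and 6.5e-05). Tfeb, Tfe3 and Mitf, which act on CACGTG elements of lysosomal genes, were not called by edgeR in any comparison.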

How the data were processed

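RNA-seq read counts of 11 libraries of sorted basal and luminal mammary cells were used. The authors aligned 80 bp read pairs to mm10 and made the deposited gene counts with featureCounts and its inbuilt annotation; versions are not given in the sources used here. The kit does not mark strand. Of 27179 identifiers, 93.0% had a mouse symbol. The 108 members, the partner list and the markers were chosen with earlier results of these data known.

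Counts were analysed in R 4.3.3 with edgeR 4.0.16 (filterByExpr with a minimum count of 10 and a total of 15, TMM, quasi-likelihood test, 1 design over the 4 groups, no replicate block). The fit and the Benjamini-Hochberg adjustment ran over 17370 genes, called at an FDR below 0.05. SE is the log2 difference divided by the square root of F. Folds against a group with no count use a floor of 3 counts over the group, and intervals and floors cover counting error only. P-values measure the spread between these libraries of pooled mice. Beside the fit as stated, 24 settings were tried, with DESeq2 1.42.0 and limma 3.58.1 among them. Scripts were tested on simulated data.

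Named were members fixed by role, those called between TEBs and ducts, the 8 largest called differences in each direction between basal and luminal cells, and the 4 largest among partner genes. Prss8, Spint2, St14, Psap, Lamp1, Sort1, Lrp1, P4ha2, Tfeb, Tfe3 and Mitf were named after their values were seen. Promoter windows are those of RefSeq for GRCm38.p6. Deviations of same-numbered libraries of basal duct and TEB correlated at 0.114, 0.115 and 0.06, against -0.152 to 0.035 for different numbers. Whether a number marks a shared pool of mice is not stated, and the numbers were not used as a block in the main fit. The result of 1 member is not reported here and is left out of the plots.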

Additional observations from a re-analysis of the deposited data

Results flagged for a closer look

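In 3 members every TEB library lay on one side of every duct library in basal cells and on the opposite side in luminal cells, as in 3.6% of all genes tested. Among them Cst3 chose the families by its differing changes, so it does not count towards a share. Ctsz and Serpinb6a are left of the 44 other members tested, and nothing is read from their number. The difference between these changes is the contrast that chose the families, and nothing is read from its test. For Cst3 the log2 difference between TEB and duct was 0.46 in basal and -2.20 in luminal cells. For Ctsz it was -0.22 in basal and 0.19 in luminal cells, and neither value passed the test. For Serpinb6a it was -0.58 in basal cells, which did not pass, and 1.18 in luminal cells, which passed.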

How the results depend on the processing

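Counts here leave out Cst3, and 24 settings were tried. In basal TEBs against ducts 3 members were called, against 5 with a likelihood ratio test, 5 with DESeq2, 7 with limma voom and 2 to 4 without 1 library. In luminal cells 2 were called, against 5 with a likelihood ratio test, 5 with DESeq2, 1 each with DESeq2 size factors, upper-quartile scaling and limma voom, 0 without composition normalization and 0 to 6 without 1 library (6 without luminal duct replicate 1). For the difference of the changes, used to choose the members, the count was 2, against 5 with a likelihood ratio test, 4 with DESeq2, 0 without composition normalization, 0 to 6 without 1 library, and 1 when luminal duct replicate 3 was left out along with either basal TEB replicate 1 or, chosen after seeing the data, basal duct replicate 2. Between basal and luminal cells counts stayed within 1.5 times, at 13 to 17 in ducts and 13 to 18 in TEBs without 1 library, against 15 and 17. With the replicate number as a block the luminal count (Ctsc and Serpinb6a lost) and that of the difference were 0. Ctsd was then lost in basal TEBs, Cstdc5 between the cell types in ducts and Ctsz between the cell types in TEBs. Whether the numbers mark pairs is not known. Same-numbered basal duct and TEB libraries correlated at 0.06 to 0.115, and differently numbered ones at -0.152 to 0.035. For luminal duct and TEB these values were 0.163 and 0.069, against -0.163 to 0.103. With 2 luminal duct libraries the deviations from their mean mirror each other, so nothing is read from that contrast. Across cell types, same-numbered libraries correlated at -0.068 to 0.104 and differently numbered ones at -0.137 to 0.137. Without composition normalization the median of all genes moved from -0.03 to -0.16 (basal TEB against duct), 0.04 to 0.42 (luminal), 0.08 to 0.19 (ducts) and 0.04 to -0.35 (TEBs). Of 2129 values for single genes, 141 lost and 19 gained the call, and 0 reversed. The causes were not tested. Depth limits members under about 15 counts.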
